A study of Mus musculus with 12 samples.

Results

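The genes described here are the 10 cyclins, cyclin-dependent kinases and kinase inhibitors of the G1 phase of the cell cycle, chosen by name out of 21743 measured genes: the D-type cyclins Ccnd1, Ccnd2 and Ccnd3, the E-type cyclins Ccne1 and Ccne2, the kinases Cdk2 and Cdk4, and the inhibitors Cdkn1b, Cdkn2a and Cdkn2b. All 10 were detected. They were measured by Drop-seq, which counts messenger RNA molecules of single cells near their 3′ ends as unique molecular identifiers (UMIs), in 12 libraries from 2 mice. Both mice were Brca1-deficient (MMTV-Cre; Brca1flox/flox) on a mixed C57BL/6 and 129/Sv strain background, and each gave its mammary glands number 4 (MG1 and MG2) and its mammary tumor (MT1 and MT2). The samples comprised 2 libraries of MG1, 2 of MG2, 5 of MT1 and 3 of MT2, all from suspensions depleted of hematopoietic and endothelial cells. Glands and tumors carried the same alleles, with Cre driven by the MMTV promoter in mammary epithelium, and no gland without Cre was part of the design. The age of the mice is not given in the labels. Since the libraries of a group came from 1 tissue of 1 animal, the p-values of comparisons over libraries cover the spread between libraries only.

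A cell commits to division in G1. D-type cyclins bind Cdk4 or Cdk6 and E-type cyclins bind Cdk2, and these kinases phosphorylate the retinoblastoma protein, which releases the E2F transcription factors and with them the genes of DNA synthesis. Cdkn2a encodes p16Ink4a, an inhibitor of Cdk4 and Cdk6, and from another first exon p19Arf, which stabilizes p53. Cdkn2b encodes p15Ink4b, also an inhibitor of Cdk4 and Cdk6, and Cdkn1b encodes p27Kip1, which inhibits cyclin E with Cdk2. Counts taken near the 3′ end cannot tell p16Ink4a from p19Arf, so the Cdkn2a counts are the sum of both. In mammary epithelium, cyclin D1 is best known for its part in the growth of the lobules during pregnancy.

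The libraries held between 693333 and 14841414 UMIs and between 105 and 4874 cells. Levels are given as CPM, the UMIs of a gene scaled to a common library size after TMM correction and summed over the cells outside the stromal clusters, 20041 of 21157 cells. In such sums, fewer cells of a type and less RNA per cell cannot be told apart. The targeted gene Brca1 had 0 UMIs in MG1, 2.25 ± 0.481 CPM in MG2 (SD, n = 2), 11.5 ± 3.16 over the MT1 libraries (n = 5) and 10.5 ± 1.33 over the MT2 libraries (n = 3). A 3′ count can lie outside the floxed part and checks nothing about its loss. The cells formed 11 clusters. Clusters of the tumors were called by their leading genes, and for the Ptgs2 and Grem1 cluster and the Cenpe and Aspm cluster of MT2, as for the Prl2c3 and Cav1 cluster of MT1, 0 of 10 epithelial markers were raised by 1 log2 unit or more over the other cells. Epithelial markers were low in MT2, where the 10 summed to between 646 and 880 CPM per library, against 7587 to 9917 CPM in MT1 and 12562 to 15174 CPM in the glands. The median share of mitochondrial UMIs per cell was 8.53% and 11.5% in the MG1 libraries and 4.67% to 8.34% in the MT1 libraries, with no overlap, and 7.63% to 8.70% in the MG2 libraries and 4.48% to 8.05% in the MT2 libraries. Its part in the comparisons of tumor and gland was not tested.

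The first question was which of the 10 genes differed between a tumor and the gland of the same mouse. In mouse 1, 8 of the 10 were higher in the tumor, 1 was lower (Ccnd2) and 1 did not pass (Ccnd1), by edgeR's quasi-likelihood test at a Benjamini-Hochberg adjusted p under 0.05. Of all 13655 genes tested, 59.3% passed in that comparison, 32.2% higher and 27.1% lower. In mouse 2, 8 were higher and Cdk2 and Cdkn1b did not pass, where 67% of all genes passed, 32.7% higher and 34.2% lower. The median log2 fold change of the 10 genes was 1.24 in mouse 1, against 0.11 over all genes, and 1.53 in mouse 2, against -0.05. Each pair of tissues shares no library with the other, but both tests share 1 estimate of the spread. The libraries of MT1 and MG1 did not overlap for 7 of the 10 genes (6 higher in MT1, as were 35.6% of all genes, and 1 lower, as were 26.8%), and those of MT2 and MG2 did not overlap for any of the 10 (9 higher, as were 39.2% of genes, and 1 lower, as were 41.7%). Changes are given relative to TMM scaling, under which the median of all genes lay 0.11 above that under the alternative size factors in mouse 1.

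**Figure D1:**
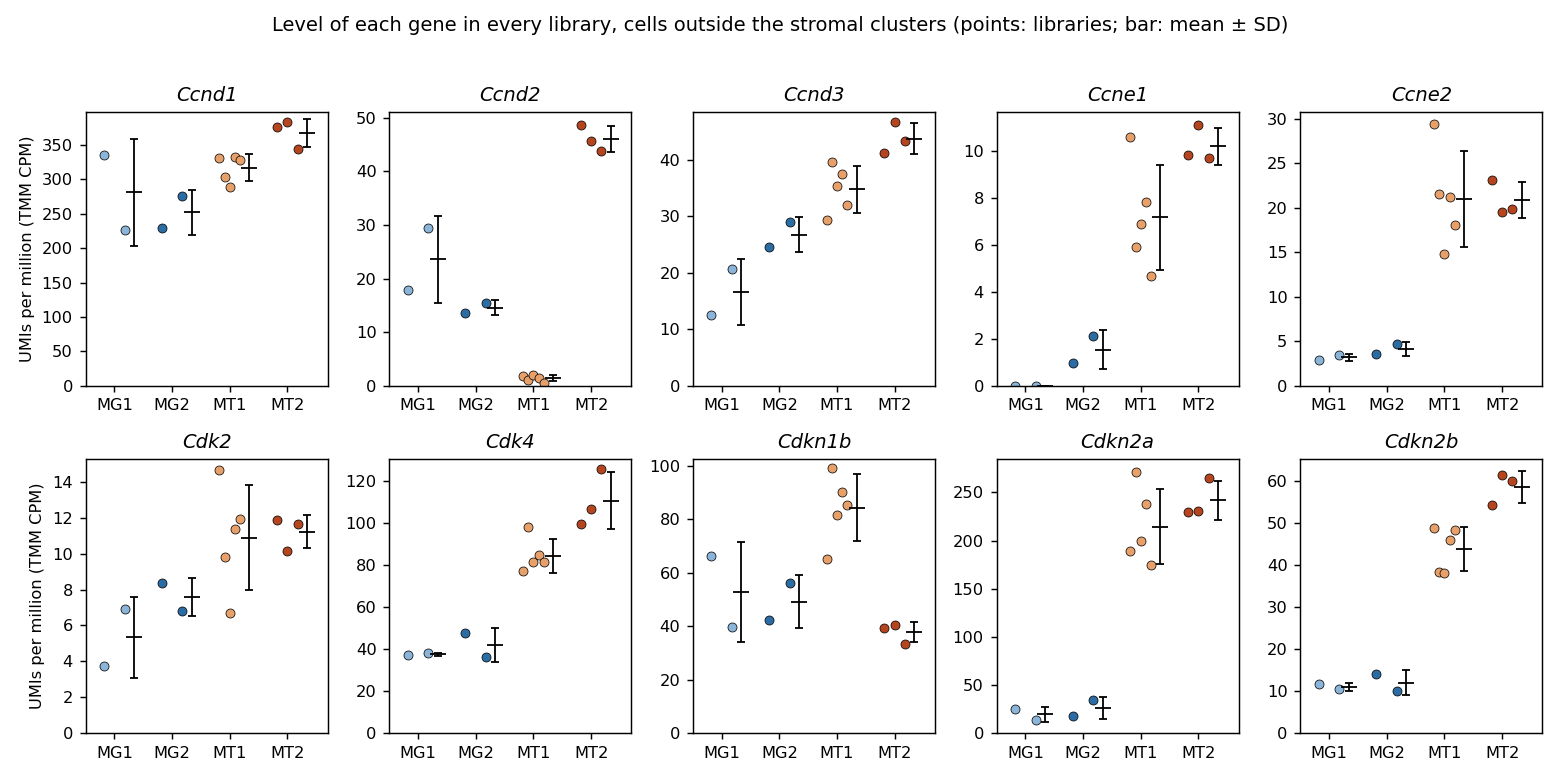
CPM of each of the 10 genes in each of the 12 libraries (points), by group, with the mean and SD as bars; each panel has its own vertical axis. Ccnd2 lies between 0.583 and 2.03 CPM in MT1 and between 43.9 and 48.6 in MT2, and Cdkn2a lies between 175 and 271 CPM in the tumors and between 13.8 and 34.4 in the glands.

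Among the D-type cyclins, Ccnd2 (chromosome 6, 127125162 to 127152193 in GRCm38, minus strand) went opposite ways in the 2 mice. Its level was 17.9 and 29.4 CPM in the MG1 libraries and 1.76, 1.18, 2.03, 1.37 and 0.583 CPM in the MT1 libraries. It was 13.6 and 15.5 CPM in the MG2 libraries and 48.6, 45.7 and 43.9 CPM in the MT2 libraries. Every MT1 library thus lay below, and every MT2 library above, all gland libraries. Ccnd2 was 14.3-fold lower in MT1 than in MG1 (log2 fold change -3.84 ± 0.33 SE, adjusted p = 4.18e-08) and 3.16-fold higher in MT2 than in MG2 (1.66 ± 0.20, adjusted p = 9.54e-07). Of the 60 Ccnd2 UMIs of MG1, 48 were in its 127 basal-like cells, a type with 4 cells in MT1. The part of this type in the fold of mouse 1 was not tested. The difference between the mice was itself -5.50 ± 0.38 on the log2 scale (adjusted p = 2.21e-09, in an interaction term where 43.5% of all genes passed, 26.4% positive and 17.1% negative). Between the tumors, Ccnd2 was 31.4-fold lower in MT1 than in MT2 (adjusted p = 6.04e-13), and the MT1 level rests on 28 UMIs in 5 libraries.

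Ccnd1 (chromosome 7, 144929931 to 144939925, minus strand), the D-type cyclin linked to mammary growth, differed less between tumor and gland. It measured 281 ± 77.2 CPM in MG1 and 252 ± 32.6 in MG2 (n = 2 each), 317 ± 19.6 over the MT1 libraries (n = 5) and 367 ± 20.9 over the MT2 libraries (n = 3). The MT1 libraries lay within the range of the MG1 libraries, 226 to 335 CPM, and the test did not call a difference (0.15 ± 0.16, 95% interval -0.17 to 0.46, adjusted p = 0.442). That result leaned on the gland libraries, since without MG1 replicate 1 Ccnd1 was called higher (0.60) and without MG1 replicate 2 the estimate was -0.07. In MT2, Ccnd1 was 1.46-fold higher than in MG2 (0.54 ± 0.17, adjusted p = 0.00835). Ccnd3 (chromosome 17, 47505051 to 47599691, plus strand), which is best known from lymphocytes, was higher in both tumors, 2.396-fold in MT1 (1.26 ± 0.24, adjusted p = 0.00021) and 1.63-fold in MT2 (0.71 ± 0.17, adjusted p = 0.00156). Its libraries ran from 12.5 to 20.7 CPM for MG1, 24.6 to 28.9 for MG2, 29.4 to 39.6 for MT1 and 41.2 to 46.6 for MT2, with no overlap between any 2 groups. The call in mouse 1 was lost without MG1 replicate 1 (0.87, adjusted p = 0.0584).

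The make-up of the D-type cyclin UMIs was compared next. Ccnd2 made up 7.76 ± 4.05% of the 3 genes' UMIs in MG1 and 4.97 ± 0.161% in MG2 (n = 2 each), 0.397 ± 0.172% over the MT1 libraries (n = 5) and 10.1 ± 0.423% over the MT2 libraries (n = 3). Ccnd1 made up 86.8 ± 6.94%, 85.9 ± 0.259%, 89.7 ± 1.43% and 80.3 ± 0.504% in the same order, the largest share in every library. Between the tumors the share of Ccnd1 was 9.37 points higher and that of Ccnd2 9.69 points lower in MT1, with no overlap (exact two-sided permutation test over 56 arrangements, p = 0.0179 for each, the smallest it can give, 0.0357 after Benjamini-Hochberg adjustment over 6 tests). Both calls were lost in this exact test without any 1 MT1 library (adjusted p = 0.0571) or any 1 MT2 library (adjusted p = 0.0952). Averaged over the mice, the share of Ccnd3 was 2.44 points higher in tumor than in gland (exact permutation test within mouse, 210 arrangements, p = 0.0143, adjusted 0.0357). Most of that came from mouse 1, at 4.43 points against 0.449 points in mouse 2, and with each library left out in turn its adjusted p ran from 0.0476 to 0.133. The averaged changes of Ccnd1 (-1.32 points, exact p = 0.533) and Ccnd2 (-1.12 points, exact p = 0.69) did not pass. For Ccnd2 that average joins -7.36 points in mouse 1 with 5.11 points in mouse 2.

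**Figure D2:**
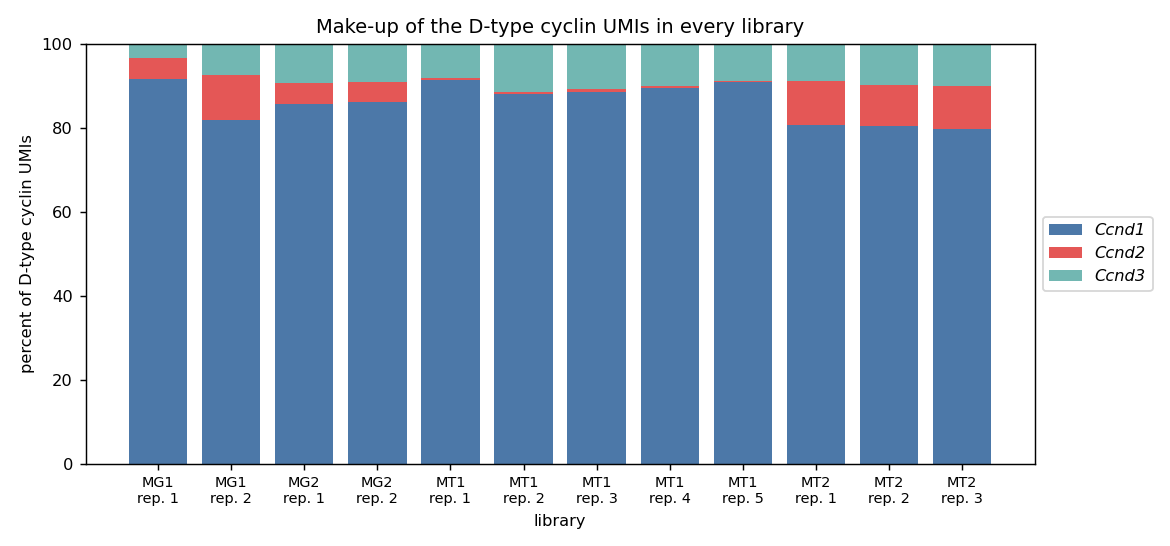
Share (%) of Ccnd1, Ccnd2 and Ccnd3 in the summed UMIs of the 3 genes, for each of the 12 libraries. Ccnd1 is the largest share in every library, and the share of Ccnd2 is under 1% in the 5 MT1 libraries and between 9.62% and 10.4% in the 3 MT2 libraries.

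Both E-type cyclins were higher in both tumors. Ccne1 (chromosome 7, 38097984 to 38107534, minus strand) had 0 UMIs in both MG1 libraries, which over the group allows a level of up to 0.944 CPM (3 counts), and 10.6, 5.88, 6.87, 7.83 and 4.66 CPM in the MT1 libraries. It was 0.954 and 2.12 CPM in the MG2 libraries and 9.80, 11.1 and 9.67 CPM in the MT2 libraries. All tumor libraries lay above all gland libraries. Ccne1 was at least 7.24-fold higher in MT1 than in MG1 (adjusted p = 9.12e-05) and 6.54-fold higher in MT2 than in MG2 (2.71 ± 0.38, adjusted p = 8.24e-06), the MG2 level resting on 13 UMIs (3.60 without MG2 replicate 2). Ccne2 (chromosome 4, 11191351 to 11204779, plus strand) ran from 2.91 to 4.71 CPM over the 4 gland libraries and from 14.8 to 29.4 CPM over the 8 tumor libraries. It was 6.63-fold higher in MT1 (2.73 ± 0.42, adjusted p = 2.65e-05) and 5.00-fold higher in MT2 (2.32 ± 0.28, adjusted p = 9.03e-07). The tumors did not differ in Ccne2 beyond their spread (-0.04 ± 0.17, 95% interval -0.38 to 0.29), whereas Ccne1 was lower in MT1 than in MT2 (-0.55 ± 0.22, adjusted p = 0.0368), a call lost under DESeq2 (adjusted p = 0.0531) and when any of 5 libraries (MT1 replicates 3 and 5 or any MT2 replicate) was left out (adjusted p from 0.053 to 0.0842).

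Of the kinases, Cdk4 (chromosome 10, 127063534 to 127067920, plus strand), the partner of the D-type cyclins, ranged from 36.2 to 47.5 CPM over the gland libraries and from 77.0 to 126 CPM over the tumor libraries. It rose 2.26-fold in MT1 (1.18 ± 0.19, adjusted p = 5.45e-05) and 2.64-fold in MT2 (1.40 ± 0.17, adjusted p = 1.01e-06). Cdk2 (chromosome 10, 128697939 to 128705031, minus strand), the partner of the E-type cyclins, was at 5.33 ± 2.24 CPM in MG1 and 7.58 ± 1.08 in MG2 (n = 2 each), 10.9 ± 2.93 over the MT1 libraries (n = 5) and 11.2 ± 0.924 over the MT2 libraries (n = 3). Cdk2 was called higher in MT1 (1.22 ± 0.42, adjusted p = 0.0187), where the MG1 value rests on 13 UMIs and the call was lost without MG1 replicate 1 (0.70, adjusted p = 0.441). In MT2 it was not called (0.56 ± 0.27, adjusted p = 0.0756), though its libraries did not overlap those of MG2 and 9 of 20 alternative settings called it.

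Promoter windows of the members were read for letters of 2 known motifs, as several of these genes are textbook E2F targets. RefSeq promoter windows on GRCm38.p6, 250 bases before to 50 after the start, matched 7 of the 10 members (Ccnd1, Ccnd2 and Ccne2 had no entry). The E2F letters searched were TTTCCCGC, TTTCGCGC, TTTGCCGC and TTTGGCGC, and the GC box GGGCGG, on both strands, and 2.26% and 35.7% of all 32851 promoter windows held them. The E2F letters lay in the windows of Cdkn2a and Cdk2, and all 7 members held a GC box. A match is a description of letters and no evidence of binding. The 100 bases from -150 to -51 of 2 starts are printed here, 5′ to 3′ on the gene's strand (both minus), to show where the matches lie, with capitals for the letters of a match. The Cdk2 stretch is chr10:128705102-128705201, with the E2F letters on the opposite strand at -140 and GC boxes at -107, -100 and -63, and the Ccne1 stretch is chr7:38107541-38107640, with GC boxes at -110 and -62.
Cdk2: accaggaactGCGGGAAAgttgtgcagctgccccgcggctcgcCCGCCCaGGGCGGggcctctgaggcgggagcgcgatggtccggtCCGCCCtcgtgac
Ccne1: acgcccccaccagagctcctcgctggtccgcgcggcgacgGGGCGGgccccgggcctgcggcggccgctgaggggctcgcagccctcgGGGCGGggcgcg

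Among the inhibitors, Cdkn2a (chromosome 4, 89274471 to 89294653, minus strand) showed the largest rise shared by both mice among the members with UMIs in every group. It was at 24.97 and 13.8 CPM in the MG1 libraries and at 189, 271, 199.7, 238 and 175 CPM in the MT1 libraries. It was at 17.9 and 34.4 CPM in the MG2 libraries and at 229.8, 231 and 266 CPM in the MT2 libraries. Every tumor library lay far above every gland library. Cdkn2a was 9.83-fold higher in MT1 (3.30 ± 0.30, adjusted p = 8.75e-08) and 9.26-fold higher in MT2 (3.21 ± 0.26, adjusted p = 6.11e-09), and the tumors did not differ beyond their spread (-0.17 ± 0.17, 95% interval -0.52 to 0.17). The size of each fold depended on 1 gland library, as the log2 fold change of Cdkn2a was 4.07 in mouse 1 without MG1 replicate 1 and 3.97 in mouse 2 without MG2 replicate 2. Cdkn2b (chromosome 4, 89306299 to 89311039, minus strand), whose 3′ end lies 11646 bases upstream of the annotated Cdkn2a on the same strand, ran from 9.88 to 14.1 CPM over the gland libraries and from 38.1 to 61.6 CPM over the tumor libraries. It was 3.85-fold higher in MT1 (1.94 ± 0.25, adjusted p = 3.63e-06) and 4.90-fold higher in MT2 (2.29 ± 0.20, adjusted p = 9.90e-09), and lower in MT1 than in MT2 (-0.43 ± 0.13, adjusted p = 0.00764).

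A large share of the gland UMIs of these inhibitors lay in few cells, most of them except for Cdkn2b in MG1. In MG1, 44 of the 68 Cdkn2a UMIs (64.7%) were in the 14 of 667 cells that clustered with tumor cells, which held 3.88% of all UMIs, and so were 15 of the 34 Cdkn2b UMIs (44.1%). In MG2, 175 of the 221 Cdkn2a UMIs (79.2%) and 58 of the 101 Cdkn2b UMIs (57.4%) were in the 47 of 2111 cells that clustered so. With those cells left out, the log2 fold change of Cdkn2a was 4.62 in mouse 1 and 5.42 in mouse 2, and that of Cdkn2b 2.68 and 3.47. What these cells are was not tested.

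Cdkn1b (chromosome 6, 134920401 to 134925513, plus strand) separated the tumors. Its level was 66.2 and 39.7 CPM in the MG1 libraries, 42.2 and 56.2 in the MG2 libraries and 39.5, 40.4 and 33.4 in the MT2 libraries. In the MT1 libraries it was 65.2, 99.2, 81.7, 90.3 and 85.3 CPM, all above MT2, with the lowest of them inside the range of MG1. Cdkn1b was 2.24-fold higher in MT1 than in MT2 (1.17 ± 0.16, adjusted p = 3.77e-06). The tumor minus gland change differed between the mice by 0.96 ± 0.29 (adjusted p = 0.0122), from 0.57 ± 0.21 in mouse 1 (adjusted p = 0.0257) and -0.38 ± 0.20 in mouse 2 (adjusted p = 0.0945). The call in mouse 1 was lost under RLE size factors (0.45), DESeq2 (0.45), a fit of MT1 and MG1 alone (0.51) and without MG1 replicate 2 (0.38). The difference between the mice was lost without MG2 replicate 2 (0.57).

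The letters around the Cdkn2a and Cdkn2b starts are shown as both genes rose together and Cdkn2a has 2 starts, 1 for each protein. The stretches run from -150 to -51 on the minus strand of GRCm38.p6, with the E2F letters at -99 of the upstream Cdkn2a start in capitals, and no match inside the other 2 stretches. They are chr4:89294670-89294769 for the upstream start, chr4:89282243-89282342 for the downstream start and chr4:89311083-89311182 for Cdkn2b. The GC boxes of these windows lay outside the printed stretches.
Cdkn2a upstream start: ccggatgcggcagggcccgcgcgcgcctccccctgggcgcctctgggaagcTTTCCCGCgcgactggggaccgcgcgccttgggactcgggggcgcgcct
Cdkn2a downstream start: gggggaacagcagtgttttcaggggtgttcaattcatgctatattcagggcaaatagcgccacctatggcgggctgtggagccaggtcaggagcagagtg
Cdkn2b: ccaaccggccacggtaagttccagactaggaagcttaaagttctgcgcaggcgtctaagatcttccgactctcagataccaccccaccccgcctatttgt

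Compared directly, 1 member was higher in MT1 than in MT2 (Cdkn1b) and 5 were lower (Ccnd2, Ccnd3, Ccne1, Cdk4 and Cdkn2b), where 68.4% of all genes passed, 35.3% higher and 33.1% lower. The tumor libraries did not overlap for 6 members, 1 higher in MT1 (Cdkn1b), as were 31.8% of all genes, and 5 lower (Ccnd1, Ccnd2, Ccnd3, Cdk4 and Cdkn2b), as were 31.4%. Cdk4 was lower in MT1 by 0.39 ± 0.13 on the log2 scale (adjusted p = 0.0112) and Ccnd3 by 0.32 ± 0.13 (adjusted p = 0.0397), the latter lost without MT1 replicate 3 or any MT2 replicate (adjusted p from 0.0595 to 0.102). Without MT2 replicate 3, only Ccnd2, Cdkn1b and Cdkn2b passed of the members, and 8409 of 13562 genes overall. The mouse and the tumor cannot be told apart here. When each tissue of each mouse was summed and tumors were paired with their glands, so that the animal was the replicate, edgeR called 0 of the 10 members and 0% of all 14948 genes, while 14.9% had an unadjusted p under 0.05, Ccne1, Ccne2, Cdk4, Cdkn2a and Cdkn2b among them. DESeq2 called Ccne2, Cdkn2a and Cdkn2b in the same sums, among 1337 of 14948 genes. The estimate was 3.29 ± 0.39 for Cdkn2a, 2.18 ± 0.46 for Cdkn2b and 2.56 ± 0.58 for Ccne2 (adjusted p = 0.309 for each), and -0.92 ± 2.00 for Ccnd2 (adjusted p = 0.834).

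**Figure D3:**
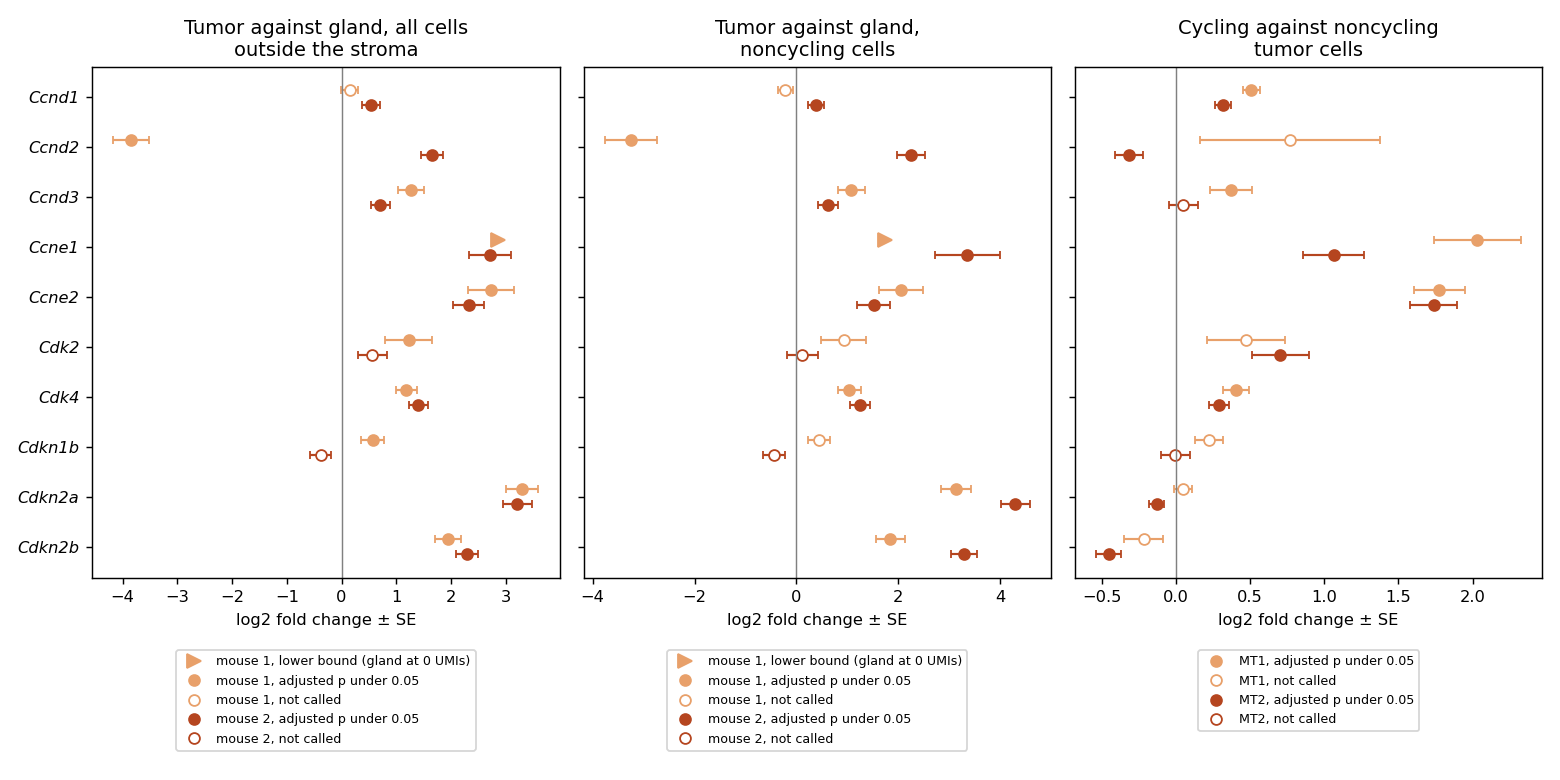
log2 fold changes ± SE of the 10 genes for tumor against gland over all cells outside the stroma (left), for tumor against gland in noncycling cells (middle) and for cycling against noncycling tumor cells (right), with filled points at an adjusted p under 0.05 and triangles for lower bounds where MG1 had 0 UMIs. Ccnd2 lies at -3.84 in mouse 1 and at 1.66 in mouse 2 in the left panel, and the E-type cyclins lie at 1.06 or above in the right panel.

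The tumors held more cells with cycle-gene UMIs than the glands, so the comparison was repeated in cells with 0 UMIs over the cycle genes Top2a, Mki67 and Cenpf. Cells with 2 or more such UMIs were called cycling. The cycling share was 2.42 ± 0.568% in MG1 and 2.42 ± 0.0298% in MG2 (n = 2 each), 18.2 ± 2.59% over the MT1 libraries (n = 5) and 46.0 ± 3.18% over the MT2 libraries (n = 3), and when each cell was thinned to 1000 UMIs it ranged from 0.671% to 1.44% in the glands, 4.02% to 11.6% in MT1 and 19.7% to 27.9% in MT2. In noncycling cells 6 of the 10 genes were still higher and Ccnd2 lower in MT1 than in MG1 (55.4% of 13186 genes passed, 27.8% higher and 27.6% lower), and 8 were higher in MT2 than in MG2 (62.7% passed, 29.9% higher and 32.8% lower). Cdkn2a was at 21.3 ± 4.70 CPM in noncycling MG1 cells and 201 ± 33.2 in noncycling MT1 cells, an 8.76-fold difference (3.13 ± 0.29, adjusted p = 4.93e-08). In mouse 2 it was at 12.5 ± 7.26 CPM in MG2 and 245 ± 24.0 in MT2, a 19.7-fold difference (4.30 ± 0.28, adjusted p = 7.03e-11), or 5.21 on the log2 scale without MG2 replicate 2. Noncycling cells of both tumors thus held Cdkn2a at about the level of the tumor as a whole.

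The E-type cyclins were also higher in tumor cells of the noncycling class, which rests on 0 UMIs of 3 genes. Whether this class held dividing cells, such as cells in G1, was not tested. Ccna2, the S-phase cyclin, had 70 UMIs in noncycling MT1 cells, and the pathway genes E2f8 and Skp2 had 41 and 149. In noncycling MG1 cells each of them had 0 UMIs. Library medians in this class were 3388 to 5482 UMIs in MG1 and 1736 to 2671 in MT1, 2404 to 2470 in MG2 and 2026 to 3795 in MT2. An alternative fit took only noncycling cells of 2000 or more UMIs, where 6763 of 12497 genes passed in mouse 1 and 7656 in mouse 2. The part of depth was otherwise not tested. Ccne2 was 4.16-fold higher in mouse 1 (2.06 ± 0.43, adjusted p = 0.000519) and 2.86-fold higher in mouse 2 (1.52 ± 0.33, adjusted p = 0.000473). Ccne1 was at least 3.36-fold higher in mouse 1 and 10.2-fold higher in mouse 2 (3.35 ± 0.64, adjusted p = 0.000154), with 4 UMIs behind the MG2 value (4.42 without MG2 replicate 2). Cdk4 was 2.05-fold higher in mouse 1 (adjusted p = 0.000587) and 2.37-fold in mouse 2 (adjusted p = 1.44e-05), while Cdk2 passed in neither (0.93 ± 0.44 and 0.12 ± 0.31). Ccnd2 kept its opposite directions, at -3.25 ± 0.51 in mouse 1 (-4.22 without MG1 replicate 1 and -2.64 without MG1 replicate 2) and 2.25 ± 0.28 in mouse 2. Ccnd1 was not called in mouse 1 (-0.22 ± 0.15) and was 1.30-fold higher in mouse 2 (adjusted p = 0.0419), a call lost in 5 of 15 alternatives. Without MG1 replicate 1, which leaves 1 MG1 library of 61 noncycling cells, Ccnd3, Ccne1 and Ccne2 did not pass in mouse 1 (adjusted p from 0.172 to 0.182), and Cdkn1b did (1.07, adjusted p = 0.0232).

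Within a tumor, cycling and noncycling cells of the same library were then compared. In MT1, 5 members were higher in cycling cells (Ccnd1, Ccnd3, Ccne1, Ccne2 and Cdk4) and 0 lower, where 28% of 12355 genes passed, 14.2% higher and 13.8% lower. In MT2, 5 were higher (Ccnd1, Ccne1, Ccne2, Cdk2 and Cdk4) and 3 lower (Ccnd2, Cdkn2a and Cdkn2b), where 29.5% passed, 11.5% higher and 18% lower. The MT2 classes differed in their clusters, as 3270 of the 4577 cycling cells were in the Cenpe and Aspm cluster. The part of this in the MT2 calls was not tested. The balance over all genes depended on the low-count filter, as 50.8% of the genes called in MT1 and 39.0% of those in MT2 were higher with it, and 34.2% and 61.0% without it. Ccne2 was at 45.1 ± 19.1 CPM in cycling and 11.7 ± 1.44 in noncycling MT1 cells (n = 5), a 3.42-fold difference (1.78 ± 0.17, adjusted p = 7.30e-12). In MT2 it was at 28.2 ± 4.04 and 8.41 ± 0.677 CPM (n = 3), 3.34-fold (1.74 ± 0.16, adjusted p = 6.34e-13). The classes did not overlap in either tumor. Ccne1 was at 14.0 ± 3.65 and 4.02 ± 2.31 CPM in MT1 (4.09-fold, adjusted p = 2.61e-07) and at 12.7 ± 0.414 and 6.07 ± 1.99 CPM in MT2 (2.09-fold, adjusted p = 5.12e-05). Both E-type cyclins were higher in the cycling cells of all 8 tumor libraries.

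The other members moved less with the cycle class. Ccnd1 was 1.42-fold higher in cycling MT1 cells (adjusted p = 1.51e-09) and 1.24-fold higher in cycling MT2 cells (adjusted p = 1.03e-05), and Cdk4 1.32-fold (adjusted p = 0.000359) and 1.22-fold (adjusted p = 0.000456), each in all 8 libraries. Within the MT1 clusters, as pooled values with no test, Ccnd1 was at 631 CPM in cycling and 467 in noncycling cells of the epithelial-like Ccl20 cluster, at 456 and 315 in the Prl2c3 and Cav1 cluster, and at 128 and 129 in the epithelial-like Sfrp1 cluster. Cdkn2b was lower in cycling MT2 cells, 50.6 ± 3.52 against 69.5 ± 8.52 CPM (-0.46 ± 0.08, adjusted p = 2.34e-05), and Ccnd2 41.4 ± 1.95 against 51.6 ± 3.42 (-0.32 ± 0.09, adjusted p = 0.0072), each in all 3 libraries. As pooled values, cycling cells of the Ptgs2 and Grem1 cluster held Ccnd2 at 52.6 CPM and Cdkn2b at 61.5. Those of the Cenpe and Aspm cluster held them at 36.4 and 45.4 CPM. The part of the clusters in both calls was not tested. Cdkn2a hardly differed, by 0.05 ± 0.06 in MT1 (adjusted p = 0.654) and by -0.13 ± 0.05 in MT2 (adjusted p = 0.0493), the latter lost in 10 of 15 alternatives. Ccnd3 in MT1 (0.37 ± 0.14, adjusted p = 0.0444) was lost in 11 of 15, and Ccnd2 and Cdk2 in MT2 in 5 and 4 of 15. The difference of the cycling effect between the tumors was called for 0 of 10 members by edgeR (4.95% of all genes, 3.17% positive and 1.78% negative), with Ccnd1, Ccne1 and Cdkn2a at an unadjusted p under 0.05, as were 16.5% of all genes. The cycling cells were deeper, with library medians of 2088 to 6334 UMIs against 1736 to 3795. An alternative set the class after thinning each cell to 1000 UMIs, where 2117 of 12549 genes passed in MT1 and 3404 in MT2. The part of depth was otherwise not tested.

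**Figure D4:**
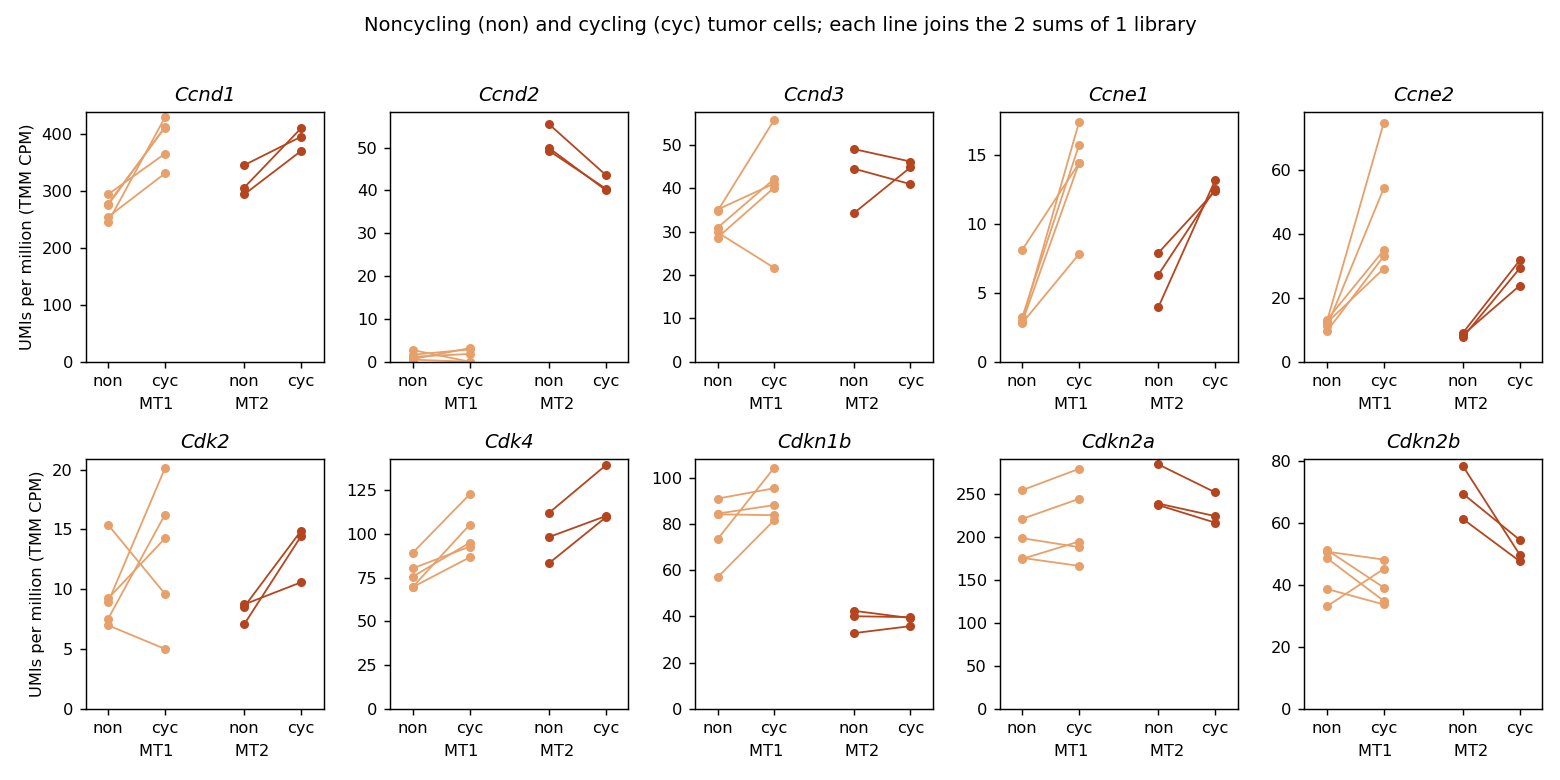
CPM of the 10 genes in noncycling and cycling cells of each tumor library, a line joining the classes of 1 library; each panel has its own vertical axis from 0. The lines of Ccne1, Ccne2, Ccnd1 and Cdk4 rise in all 8 libraries and those of Cdkn2b fall in the 3 MT2 libraries.

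The glands held few cycling cells, so their values are single sums with exact Poisson intervals and no test. The 14 cycling cells of MG1 held 25 Ccnd2 UMIs, 287 CPM (95% interval 185 to 423), against 9.65 CPM (6.41 to 13.9) in 630 noncycling cells. In MG2, 51 cycling cells held Cdkn2a at 212 CPM (169 to 263) against 12.9 (10.4 to 15.8) in 1992 noncycling cells, Ccnd2 at 75.9 (51.2 to 108) against 10.9 (8.63 to 13.6), and Ccnd1 at 564 (492 to 643) against 244 (232 to 255). These sums run over all clusters outside the stroma. Of the 51 cycling cells of MG2, 24 were luminal secretory-like, and these held 7 of the 84 Cdkn2a UMIs and 0 of the 30 Ccnd2 UMIs. The part of the clusters' shares of each class in these values was not tested. Cdkn2a had 0 UMIs in the cycling cells of MG1, which allows up to 34.4 CPM.

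By cell type, the levels of Ccnd1 and Ccnd2 split the gland lineages. These are descriptions of clusters made from the same cells, pooled over libraries, with intervals for counting error only. Ccnd1 was at 429 CPM (397 to 464) in hormone-sensing-like cells of MG1 and 329 (310 to 349) of MG2, at 204 (178 to 232) and 207 (193 to 222) in luminal secretory-like cells, and at 68.8 (45.3 to 100.0) and 118 (93.5 to 146) in basal-like cells. The order of these pooled values was the same in both glands, and the intervals of neighbours in it did not overlap. The pooled MG1 values rest mostly on replicate 1, with 465.5 CPM in hormone-sensing-like and 186 in luminal secretory-like cells. In MG1 replicate 2 this order was reversed, with 259 and 291 CPM. Ccnd2 ran the other way, at 122 (90.1 to 162) and 87.5 (66.9 to 112) in basal-like cells, 4.58 (1.84 to 9.44) and 5.47 (3.24 to 8.65) in hormone-sensing-like cells and 3.53 (0.962 to 9.04) and 1.60 (0.587 to 3.48) in luminal secretory-like cells. Hormone-sensing-like and luminal secretory-like cells did not differ in Ccnd2 beyond their intervals. Fibroblast-like cells held Ccnd2 at 94.6 to 183 CPM in the 4 groups, and it made up from 49.8% to 73.7% of their D-type cyclin UMIs, against 60.0% in MG1 and 39.6% in MG2 basal-like cells.

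In MT2, Ccnd2 was at 49.7 CPM (46.9 to 52.6) in the Ptgs2 and Grem1 cluster and 36.7 (33.9 to 39.7) in the Cenpe and Aspm cluster, and in MT1 it was at 2.03 CPM (1.22 to 3.18) or less in each of the 3 tumor clusters. The sum of the fibroblast markers moved with it in mouse 2: the 9 markers, all detected in every group, summed to between 3360 and 3816 CPM in the MT2 libraries outside the stromal clusters and to between 358 and 812 CPM in the libraries of the other groups. Taken singly, 2 of the 9 were raised by 1 log2 unit or more over the other cells in the Ptgs2 and Grem1 cluster. In the Cenpe and Aspm cluster 0 of 9 were. The sum of the 10 basal markers was lower in both tumors. It moved with Ccnd2 in mouse 1, at 840 to 876 CPM in MG1 and 193 to 210 CPM in MT1, where Oxtr had 0 UMIs. It moved against Ccnd2 in mouse 2, at 766 to 850 CPM in MG2 and 27.9 to 28.9 CPM in MT2, where Krt5 and Oxtr had 0 UMIs. The part of either marker list in the Ccnd2 result was not tested. The 44 MG2 cells of the Prl2c3 and Cav1 cluster held Ccnd2 at 158 CPM (112 to 217), against 1.04 (0.285 to 2.67) in the 1347 MT1 cells of the same cluster.

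Cdkn2a was low in gland epithelium, at 0.882 CPM (0.0223 to 4.92) in MG1 and 4.0004 (2.24 to 6.60) in MG2 luminal secretory-like cells and at 14.4 (9.03 to 21.8) and 5.47 (3.24 to 8.65) in hormone-sensing-like cells, with basal-like cells at 2.55 (0.0645 to 14.2) and 18.6 (9.93 to 31.9). All 3 gland types lay below every tumor cluster. In MT1 it was at 504 CPM (482 to 527) in the Prl2c3 and Cav1 cluster, 157 (147 to 168) in the Ccl20 cluster and 131 (124 to 138) in the Sfrp1 cluster. The first lay above the others in every library, at 387 CPM or more against at most 211. In MT2 it was at 238 (232 to 245) in the Ptgs2 and Grem1 cluster and 223 (216 to 230) in the Cenpe and Aspm cluster. The 44 MG2 cells of the Prl2c3 and Cav1 cluster held it at 727 CPM (623 to 843) and Cdkn2b at 241 (183 to 312). Cells in the stromal clusters of the tumors held its UMIs too, at 73.9 CPM in fibroblast-like MT1 cells and 91.2 in both the fibroblast-like and the immune-like MT2 cells. Of the 79 Cdkn2a UMIs of the 289 fibroblast-like MT2 cells, 49 were in 64 cycling cells. Whether these UMIs came from stromal or from tumor cells was not tested.

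Counted as cells with a Cdkn2a UMI after thinning each cell to 1000 UMIs, which left out 0 cells, the shares were 1.54 ± 0.190% in MG1 and 1.57 ± 1.03% in MG2 (n = 2 each), 17.2 ± 2.11% over the MT1 libraries (n = 5) and 20.6 ± 1.17% over the MT2 libraries (n = 3). In the same order they were 6.78%, 2.99%, 34.1% and 55.1% unthinned. Beside them, 5.88% (exact interval 2.57 to 11.3) of fibroblast-like MT1 cells and 4.57% (1.99 to 8.81) of immune-like MT2 cells had a UMI after thinning, a background for the tumor shares if such cells lack the gene, at unthinned medians of 1911 and 2285 UMIs against 2044 to 3454 in the tumor clusters. In the Prl2c3 and Cav1 cluster 37.2% (34.6 to 39.8) of MT1 cells had a Cdkn2a UMI, in the Ccl20 cluster 14.7% (13.3 to 16.2) and in the Sfrp1 cluster 11.05% (10.04 to 12.1). The interval of the Sfrp1 cluster overlapped that of the fibroblast-like cells, and those of the other tumor clusters lay above it.

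Cdkn1b and other members also varied by cluster. Cdkn1b was at 105 CPM (97.0 to 114) in the Ccl20 cluster, 85.4 (79.6 to 91.5) in the Sfrp1 cluster and 48.8 (42.1 to 56.4) in the Prl2c3 and Cav1 cluster of MT1, and at 41.5 (38.5 to 44.6) and 32.4 (30.2 to 34.8) in the Cenpe and Aspm and the Ptgs2 and Grem1 clusters of MT2. The lower Cdkn1b of MT2 thus lay in both of its clusters, and the Prl2c3 and Cav1 cluster of MT1 lay near them. Ccnd1 differed widely among MT1 clusters, at 525 (507 to 544) in the Ccl20 and 132 (125 to 140) in the Sfrp1 cluster. Ccne2 and Cdk4 were highest among the tumor clusters in the Cenpe and Aspm cluster, at 33.5 (30.8 to 36.3) and 124 (119 to 129) CPM, a cluster led by mitosis genes with 3270 cycling cells of 3585.

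**Figure D5:**
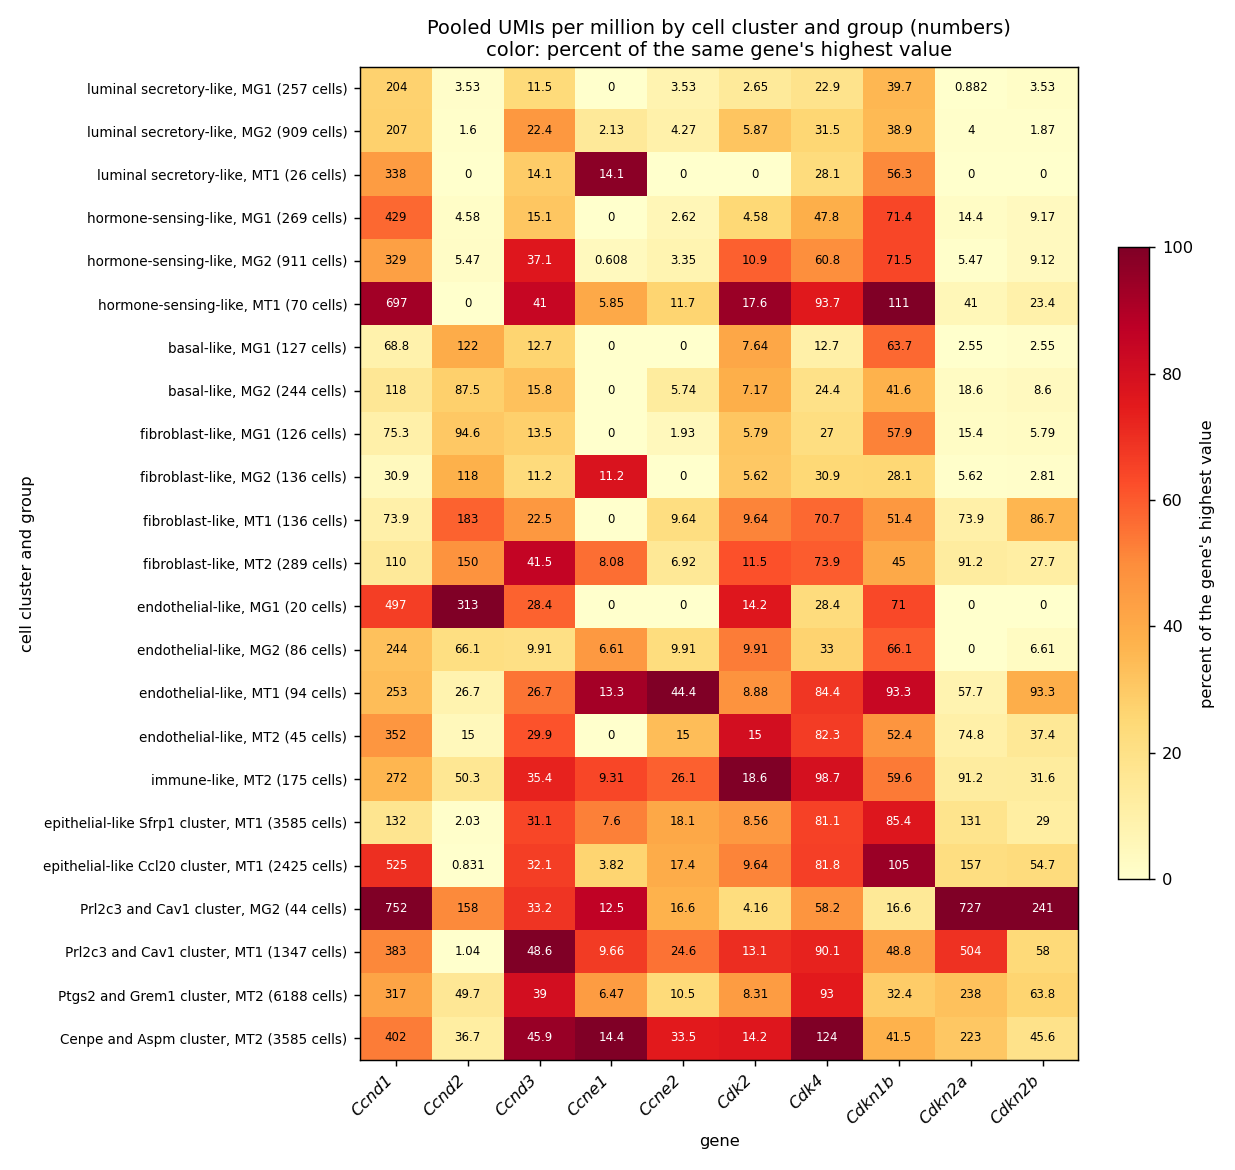
Pooled CPM of the 10 genes (numbers) by cell cluster and group (rows, with the number of cells), coloured by the percent of the same gene's highest value. Ccnd2 is at 87.5 to 183 CPM in fibroblast-like and basal-like cells, and Cdkn2a is at 131 to 727 CPM in the tumor clusters.

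A list of 30 other genes of the pathway, its pocket proteins, E2F factors, other kinases and inhibitors and ubiquitin ligases, was read beside the members, and 29 were tested (E2f2 was too low). In mouse 1, 17 were higher, 4 lower and 8 not called, and in mouse 2, 18, 6 and 5. Over all genes tested, 32.2% were higher and 27.1% lower in mouse 1, and 32.7% and 34.2% in mouse 2. The median of the list was 1.23 in mouse 1 and 0.70 in mouse 2, against 0.11 and -0.050 over all genes. Ccna2, the S-phase cyclin, Skp2, the ubiquitin ligase subunit that marks p27Kip1 for degradation, and E2f8, a repressor E2F, had 0 UMIs in MG1 and were at least 29.8-, 14.98- and 8.39-fold higher in MT1, and E2f1 was called higher, with 2 UMIs in MG1 and 13.6 ± 3.05 CPM in MT1 (n = 5). In mouse 2, Ccna2 was higher by 5.05 ± 0.40, E2f8 by 4.33 ± 0.42 and Cdkn2c, which encodes p18Ink4c, by 4.28 ± 0.37 (without MG2 replicate 2, Ccna2 by 5.76 and E2f8 by 5.51), while Cdkn1c, which encodes p57Kip2, was called lower, with 56 UMIs in MG2 and 3 in the deeper MT2. Rb1, E2f6 and Cdkn1a were called lower in both mice. In noncycling cells 14 were higher, 4 lower and 11 not called in mouse 1, and 15, 5 and 9 in mouse 2, with medians of 0.81 and 0.47 against 0.025 and -0.079 over all genes, of which 27.8% were higher and 27.6% lower in mouse 1 and 29.9% and 32.8% in mouse 2.

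Between the tumors, 7 of the 29 were higher in MT1, 12 lower and 10 not called, and of the difference between the mice 7 were positive, 5 negative and 17 not called. Over all genes, 35.3% were higher and 33.1% lower in MT1, and 26.4% of the differences between the mice were positive and 17.1% negative. The medians of the list were -0.24 and -0.024, against 0.011 and 0.15 over all genes. Cdkn1c was at 45.04 ± 5.19 CPM in MT1 (n = 5) and had 3 UMIs in all of MT2 (adjusted p = 1.21e-11). Cdk6, the other partner of the D-type cyclins, was at 56.0 ± 5.48 CPM in MT1 and 190 ± 20.1 in MT2 (n = 3), a difference of -1.76 ± 0.14. In cycling cells 13 of the 29 were higher and 2 lower than in noncycling cells in each tumor, led by Ccna2 at 4.03 ± 0.17 in MT1 and 4.29 ± 0.14 in MT2 (4.95 without MT2 replicate 2). Of all genes, 14.2% were higher and 13.8% lower in cycling MT1 cells and 11.5% and 18% in cycling MT2 cells, and the medians of the list were 0.26 and 0.12, against -0.034 and -0.078 over all genes. The difference of this effect between the tumors was positive for Cdkn2c and E2f1, negative for Cks1b and not called for 26, where 3.17% of all genes were positive and 1.78% negative.

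For each member the 3 genes with the nearest pattern over the 12 libraries were found among 8437 other genes, by the root mean square difference of centred log2 CPM. For Ccnd2 these were Thsd7a (0.37), C1ra (0.43) and C1s1 (0.44), and Thsd7a was at 42.8, 30.7, 3.02 and 139 CPM in MG1, MG2, MT1 and MT2. For Cdkn2a they were Zbp1 (0.25), Mcm3 (0.31) and Selenoh (0.36), and for Cdkn1b Snrnp48 (0.14), Ccdc91 (0.15) and Ctnna1 (0.16). Ccne1 was nearest to Skp2 (0.43) among 8438 genes. Of the 10 tested genes nearest to Ccnd2 on chromosome 6, 4 were higher and 3 lower in MT1 than in MG1, with a median of 0.46, where 32.2% of all genes were higher and 27.1% lower. In MT2 against MG2, 5 were higher and 1 lower, with a median of 0.53 (32.7% and 34.2% of all genes). In MT1 against MT2, 3 were higher and 5 lower, with a median of -0.25 (35.3% and 33.1%).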

How the data were processed

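Per the labels and the study's methods, the authors aligned the Drop-seq reads to mouse GRCm38.p6 with STAR through the Drop-seq tools and deposited raw UMI counts per gene and cell, in 1 table of all 12 libraries, holding cells with at least 800 detected genes. The counts were used as deposited. Cells were clustered with scanpy 1.11.5 (3000 variable genes, 30 components, 20 neighbours, Leiden resolution 0.6, leidenalg 0.10.2) and named from fixed markers, and a cluster with too few raised markers was named by its leading genes. Scrublet marked 51 cells (0.241%) as doublets, too few for the caller to have worked, and none were removed. Libraries shared 0 to 7 cell barcodes. Counts were summed per library over cells outside the stromal clusters (fibroblast-like, immune-like and endothelial-like) and tested with edgeR 4.0.16 (TMM, filterByExpr, quasi-likelihood) in R 4.3.3, 1 fit over the 4 groups, with Benjamini-Hochberg adjustment over all genes tested. Cycling and noncycling sums were fitted with the library as block, leaving out cells with 1 UMI of Top2a, Mki67 and Cenpf and not testing these genes. Tumor and gland sums of 1 mouse were also fitted with the mouse as block, a pairing the labels give by the mouse. Replicate numbers followed the order of deposition and paired nothing. Shares were compared by exact permutation with scipy 1.17.1.

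The members, gene lists and tests were chosen with earlier results of these data known. Named genes were the 10 members, pathway genes out of the 4 called with the largest change per comparison and the 3 genes nearest in pattern (reported here for Ccnd2, Cdkn2a and Cdkn1b and, for Ccne1, the nearest alone), and Rb1, E2f6 and Cdkn1a were named after their values were seen. Not all 4 pathway genes were named for every comparison. For MT1 against MT2, Cdkn2c (-1.87) and E2f8 (-1.86) were left out. Alternatives were RLE size factors, DESeq2 1.42.0, no low-count filter, only the groups compared, other cell sets, class rules, thinning depths and clustering resolutions, no block, and each library left out. On simulated data with known changes, the fit recovered 46% of genes changed by 1 log2 unit and 88% of those changed by 2 in MT1 against MG1, 58% and 96% in MT2 against MG2, and 0% and 0% in the fit of 4 sums. Poisson and binomial intervals are exact at 95% and, like the floor of 3 counts, cover counting error only. Totals per library ran from 693333 to 14841414 UMIs.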

Additional observations from a re-analysis of the deposited data

Results flagged for a closer look

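The tumor minus gland change of Ccnd2 differed between the mice by -5.50 ± 0.38 on the log2 scale (edgeR interaction term, adjusted p = 2.21e-09). All 5 MT1 libraries lay below both MG1 libraries and all 3 MT2 libraries lay above both MG2 libraries. The sum of the fibroblast markers moved with it in mouse 2 and that of the basal markers in mouse 1 (840 to 876 CPM in MG1, 193 to 210 in MT1), and their part was not tested.

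The change of Cdkn1b differed between the mice by 0.96 ± 0.29 (adjusted p = 0.0122), without MG1 replicate 1 by 1.55, and without MG2 replicate 2 by 0.57 (adjusted p = 0.182). In this replicate Cdkn1b was at 56.2 CPM, against 42.2 in the other.

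In noncycling cells of MT1, replicate 1 stood apart from the other 4 libraries for Ccne1, at 8.14 CPM against at most 3.26, and for Cdk2, at 15.4 CPM against at most 9.23, both by Dixon's criterion. Chance gives about 1 such library in 20 groups, and 33 groups of 5 were looked at. Without this library, Ccne1 still passed in noncycling cells of mouse 1 (adjusted p = 0.00434) and Cdk2 still did not (0.79, adjusted p = 0.111).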

How the results depend on the processing

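Most values kept their direction and their side of the threshold under the alternatives. Changes of direction, and counts and shares that moved, are given here (log2 fold changes unless said otherwise), but not every call gained or lost by a single member. Ccnd1, not called as reported, passed in 4 of 19 alternatives for the difference between the mice and in 6 of 20 for MT1 against MT2, and Cdkn1b in 4 of 15 for noncycling cells of mouse 1 and in 5 of 15 for cycling cells of MT1. Depth limits most the MG1 values, from 2 libraries, 1 of them of 105 cells, and the genes with few UMIs there (Ccne1, Cdk2, Ccne2). The cause of each change was not tested.

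The difference between the mice in Cdkn2a, 0.09 as reported, was -0.058 under RLE size factors, -0.035 with DESeq2, -0.040 without a low-count filter and -0.80 without the gland cells in tumor clusters. With each library left out in turn it ran from -0.62 to 0.82, and that of Ccnd1 from -0.70 to 0.019. Leaving out libraries also moved Ccnd1 in MT1 against MG1 from -0.067 to 0.60, Ccnd1 in noncycling cells of mouse 1 from -0.31 to 0.12, Cdkn1b in MT2 against MG2 from -0.43 to 0.052, and, in MT1 against MT2, Ccne2 from -0.24 to 0.082 and Cdk2 from -0.28 to 0.069. The number of members called in MT1 against MT2 ran from 3 (without MT2 replicate 3, 8409 of 13562 genes overall) to 7, and in cycling against noncycling MT2 cells from 5 (without MT2 replicate 1, 2468 of 11400 genes) to 8.

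With no block for the mouse in the fit of 4 sums, the paired estimate of Ccnd2 was 0.55, against -0.92 with it, and 0 members passed either way, while DESeq2 with the block called 3, and 1337 of 14948 genes. With no library block in the cycling comparison of MT2, 2 members passed (Ccne1 and Ccne2), against 8 with it and 5 with DESeq2. Over all genes, 1200 of 11981 passed without it, 3640 of 12355 with it and 2143 of 12355 with DESeq2. Cdkn1b was at 0.016 without the block, and no other value changed direction without it.

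In the cycling comparison of MT1, Cdkn2a, at 0.05, was -0.049 without a low-count filter and -0.10 with the class set after thinning. In MT2, Cdkn1b, at -0.01, was 0.089 without the filter and 0.13 with the thinned class, and with libraries left out it ran from -0.069 to 0.045 and Ccnd3 from -0.11 to 0.16. Of the differences of the cycling effect, Ccne2, at 0.04, was -0.15 without the filter, -0.062 with cycling set at 1 UMI or more and -0.10 to 0.17 with libraries left out. Without the filter Cdk4 was -0.076 and Cdkn2a -0.011, and with the thinned class Cdk2 was 0.050 and Cdkn2b -0.056. With the epithelial-like clusters alone for MT1, 1 member passed, Ccne1 at 1.54 (adjusted p = 0.0224), and 376 of 11970 genes.

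The tumor minus gland share of Ccnd1, -1.32 points as reported, was 2.13 over all cells and -5.08 over noncycling cells (exact test, adjusted p = 0.0643), and that of Ccnd2, -1.12 as reported, was -4.80 over all cells (exact test, adjusted p = 0.10) and 2.10 over noncycling cells. With libraries left out they ran from -3.77 to 1.14 and from -2.56 to 0.31 points, and that of Ccnd3 from 1.42 to 3.46. Between the tumors the ranges were 8.95 to 9.76 for Ccnd1, -9.92 to -9.51 for Ccnd2 and -0.086 to 0.76 for Ccnd3. Without MG1 replicate 2 the Ccnd1 share passed for tumor minus gland (exact test, adjusted p = 0.0357). With 1 tumor library left out, the exact tests between the tumors could not go below an unadjusted p of 0.0286 (MT1) or 0.0476 (MT2). The share of cells with a Cdkn2a UMI was 6.78%, 2.99%, 34.1% and 55.1% in MG1, MG2, MT1 and MT2 without thinning, and 3.09%, 2.56%, 31.9% and 35.8% at 2000 UMIs, a depth that left out 6771 of all cells, stroma included. At resolution 0.3 the basal-like cells of MG2 merged into a cluster of 1153 MG2 cells with Ccnd2 at 15.1 CPM, and at 1.0 it was at 93.4 CPM there and 39.7 CPM in the cluster nearest to the Ptgs2 and Grem1 cluster of MT2, which held 39.1% of its cells.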

Other observations

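Within single tumor clusters the cycling and noncycling cells showed the E-type cyclin difference unevenly, as pooled values with no test. Ccne1 was at 23.9 CPM in 484 cycling cells of the epithelial-like Sfrp1 cluster and 2.71 in 2721 noncycling ones, at 7.58 and 2.35 in the Ccl20 cluster, at 10.95 and 8.14 in the Prl2c3 and Cav1 cluster and at 7.99 and 5.48 in the Ptgs2 and Grem1 cluster. Ccne2 was at 46.7 and 10.8 CPM in the Sfrp1 cluster, 33.8 and 11.999 in the Ccl20 cluster, 39.1 and 12.2 in the Prl2c3 and Cav1 cluster and 15.4 and 7.16 in the Ptgs2 and Grem1 cluster. In the Cenpe and Aspm cluster of MT2, where 3270 cells were cycling and 112 were not, Ccne2 was at 33.2 and 36.1 CPM. That cluster held 59.6% of the Ccne1 and 67.6% of the Ccne2 UMIs of MT2.

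Cdkn2a was lower in cycling than in noncycling cells of the Prl2c3 and Cav1 cluster by value, at 393 CPM in 355 cells against 579 in 790 cells, and near equal in the Ccl20 cluster (165 and 155), the Sfrp1 cluster (129 and 130) and the Ptgs2 and Grem1 cluster (243 and 236). The Prl2c3 and Cav1 cluster held 46.6% of the Cdkn2a UMIs of MT1.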
